A study of Mus musculus with 12 samples.

Results

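The aryl hydrocarbon receptor (AHR) axis was described in mouse liver through 8 genes: the receptor gene Ahr, its partner gene Arnt, its repressor gene Ahrr, and the target genes Cyp1a1, Cyp1a2, Cyp1b1, Tiparp and Aldh3a1. They were chosen by gene symbol among the 18784 named genes of a whole-transcript array, and each of the 8 was found with 1 probe set among the 21212 of the table. RNA came from the large liver lobe of 12 mice, perfused with buffered saline and stored in RNA later, with 1 array per mouse. The groups were 3 KK males, 3 KK females, 3 C57BL/6J males and 3 C57BL/6J females. KK mice are inbred and become obese and insulin resistant, and the strain is written KK/HIJ in one label of these samples and KK/J in another. C57BL/6J is a common laboratory strain. All mice were 8 weeks old, ate chow, lived alone for 3 days and were fasted for 4 hours, and the labels name no AHR ligand or other agent given to any group.

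AHR is a transcription factor of the bHLH-PAS family that waits in the cytosol with HSP90 and co-chaperones. A ligand, such as a planar aromatic pollutant, a plant indole or a tryptophan metabolite, sends it to the nucleus, where it pairs with ARNT and binds xenobiotic response elements. Its classic liver response is a strong induction of Cyp1a1 and Cyp1a2, whose P450 enzymes oxidise aromatic compounds, and the repressors AHRR and TIPARP then limit the response. Cyp1a2 is also transcribed in the livers of untreated mice, mostly by hepatocytes around the central vein, whereas Cyp1a1 is nearly silent there without a ligand. Ahr differs in sequence among inbred mouse strains, C57BL/6J carries an allele of high ligand affinity, and the allele of KK is not given in the sources used here.

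The core of the xenobiotic response element, GCGTG, is shown first because it is what the receptor and its partner recognise. Proximal promoters of 6 of the 8 genes were found in the RefSeq table for GRCm38.p6, each with 250 bases before the start site and 50 after it. The core was searched on both strands, so that it reads GCGTG or CACGC along the gene's strand, and it occurred 7 times in 5 of these 6 promoters. Of all 32851 promoters of the same length, 32.4% held it. A longer form, TNGCGTG, which contains the core, lay in 1 of the 6, the Ahrr promoter, and in 5.1% of all promoters. The short stretches around each copy follow, 5′ to 3′ on the gene's strand, with the core in capitals.
Ahrr, chr13:74292426-74292446, gene on the minus strand: gaaagggcGCGTGgcaggcag
Ahrr, chr13:74292401-74292421, gene on the minus strand: aaggatgtGCGTGcgccctct
Ahrr, chr13:74292346-74292366, gene on the minus strand: ggcggctcGCGTGctggggtg
Arnt, chr3:95434353-95434373, gene on the plus strand: agtttgggGCGTGtcttctgc
Cyp1a1, chr9:57697551-57697571, gene on the plus strand: ataaggagGCGTGgccaacag
Cyp1b1, chr17:79715125-79715145, gene on the minus strand: ccgcccctCACGCcccacccc
Tiparp, chr3:65528269-65528289, gene on the plus strand: gtccggagCACGCgcacggga

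Cyp1a1 and Cyp1a2 lie side by side on chromosome 9 and are read away from each other. The start sites of the promoters used here lie 13958 bases apart. The RefSeq span of Cyp1a1 begins farther upstream, at chr9:57687928, and the sequence before that position was not searched. Both promoters are shown whole because Cyp1a1 read near background and Cyp1a2 was abundant in these livers. The Cyp1a2 promoter held no copy of the core within this window, and enhancers farther from the start site were not searched.
Cyp1a1, chr9:57697363-57697662, plus strand: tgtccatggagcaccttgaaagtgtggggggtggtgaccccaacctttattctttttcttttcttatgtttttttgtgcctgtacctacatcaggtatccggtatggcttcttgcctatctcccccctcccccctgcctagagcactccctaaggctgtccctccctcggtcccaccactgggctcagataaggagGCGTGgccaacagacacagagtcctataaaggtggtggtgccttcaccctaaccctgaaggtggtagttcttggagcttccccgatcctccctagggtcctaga
Cyp1a2, chr9:57683606-57683905, minus strand: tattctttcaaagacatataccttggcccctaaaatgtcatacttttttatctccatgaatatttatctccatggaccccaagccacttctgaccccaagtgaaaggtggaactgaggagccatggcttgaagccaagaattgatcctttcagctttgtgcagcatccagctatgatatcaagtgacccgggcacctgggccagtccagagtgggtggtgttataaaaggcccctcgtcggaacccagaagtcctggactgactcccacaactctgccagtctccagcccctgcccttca

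The values are log2 expression values, so that a difference of 1 is a doubling. The median of an array lay between 5.9 and 6.03, and its interquartile range, which measures how widely the values of an array spread, between 2.64 (KK male 2) and 2.97 (C57BL/6J female 3 and KK female 1). The labelled sex was checked with Xist, a transcript of the inactive X chromosome, which was at most 4.7 in male arrays and at least 10.29 in female arrays. The 3 measured Y-linked genes, which females lack, read 3.79 to 4.66 in the 6 female arrays and show roughly where an absent transcript lies, although background differs between probe sets. The upper end of this range came from Kdm5d alone, since Eif2s3y read at most 4.12 and Uty at most 4.16 in females. Tissue identity was checked with hepatocyte markers (Alb, Apoa1, Ttr, Serpina1c and Tat), whose mean log2 value was 13.28 to 13.46 in every array. In whole liver, fewer cells of a type and less RNA per cell cannot be told apart.

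Ahr, the receptor gene on chromosome 12 (chr12:35497979-35534989, GRCm38.p6), was lower in KK livers of both sexes. Its log2 values were 8.36, 8.05 and 8.43 in KK males and 8.25, 8.27 and 8.27 in KK females, against 8.87, 8.65 and 8.79 in C57BL/6J males and 8.82, 8.95 and 8.74 in C57BL/6J females. All 6 KK values lay below all 6 C57BL/6J values, and the 3 KK females lay closer together than any other group. By limma over all probe sets, the difference of KK minus C57BL/6J was -0.53 (SE 0.07, 95% interval -0.68 to -0.38, adjusted p = 0.000322), which puts KK at 69.2% of the C57BL/6J level (interval 62.3% to 77%). Of all probe sets, 6.31% were called lower at an adjusted p under 0.05, and 3.32% lay wholly below in KK. Ahr fell by 0.57 in KK females (SE 0.10, adjusted p = 0.0043) and by 0.49 in KK males (SE 0.10, adjusted p = 0.0124). The male difference minus the female one was 0.08 (SE 0.14, adjusted p = 0.948). In males the adjusted p was 0.0535 without C57BL/6J male 1 and 0.0545 when only the male arrays were fitted. Over both sexes, limma called 3 of 7 Kupffer cell markers lower in KK and, of 8 pericentral hepatocyte markers, 3 lower and 1 higher. The Kupffer list averaged 7.40 to 7.83 in KK males and 8.29 to 9.08 in KK females, against 7.91 to 8.58 in C57BL/6J males and 8.51 to 8.66 in C57BL/6J females. The pericentral list averaged 9.15 to 9.23 in KK males and 9.30 to 9.36 in KK females, against 9.14 to 9.34 in C57BL/6J males and 9.51 to 9.64 in C57BL/6J females. The Kupffer count was 1 without KK female 2 or 3, KK male 1 or 2, C57BL/6J female 1 or 2, or C57BL/6J male 2, and the part of these markers in the Ahr values was not tested. Whether a KK sequence difference under the probes moved with these values was not tested, since single probes were not available.

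Arnt, on chromosome 3, encodes the partner that AHR shares with the hypoxia factors. It read 7.97, 7.66 and 8.14 in KK males and 7.99, 7.95 and 7.96 in KK females, against 7.99, 7.89 and 8.05 in C57BL/6J males and 8.15, 8.00 and 8.34 in C57BL/6J females. The strains overlapped in males, while all KK females lay just below all C57BL/6J females. The difference over both sexes was -0.13 (SE 0.08, interval -0.30 to 0.05, adjusted p = 0.43), so that the receptor and its partner did not share a call. In females it was -0.20 (SE 0.12, adjusted p = 0.446).

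Ahrr, on chromosome 13, encodes the repressor that competes with AHR for ARNT and is itself induced by AHR. It read 4.44, 4.42 and 4.21 in KK males and 4.16, 4.39 and 4.27 in KK females, against 4.26, 4.24 and 4.23 in C57BL/6J males and 4.24, 4.36 and 4.19 in C57BL/6J females. Every value lay within the range of the Y-linked genes in females, and the groups overlapped. The difference of 0.06 (SE 0.06, interval -0.07 to 0.19) had an adjusted p of 0.645.

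**Figure D1:**
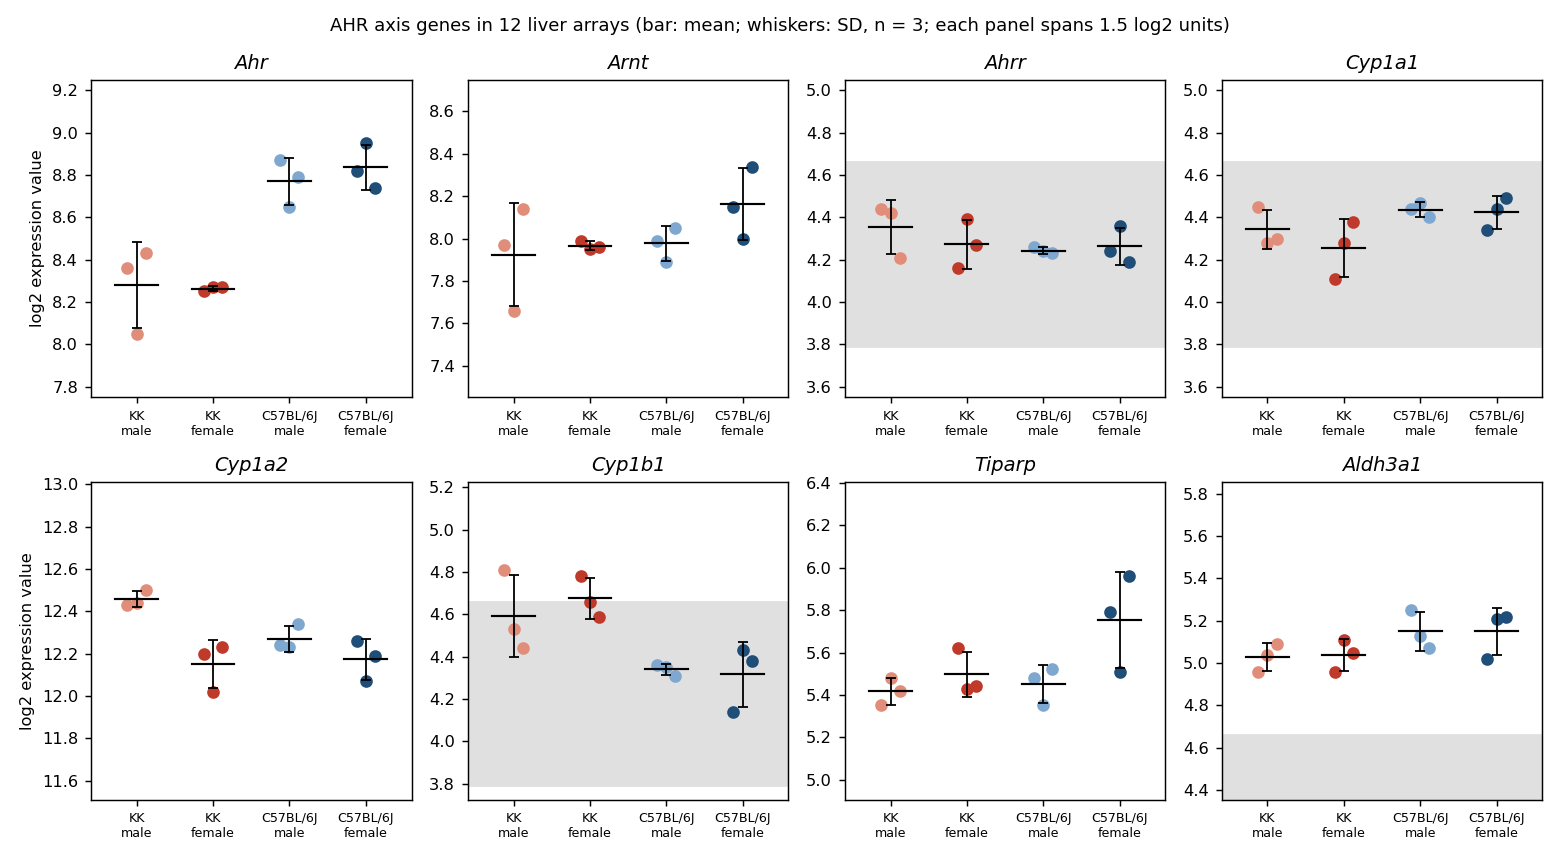
Log2 expression value (vertical axis) of each of the 8 genes in the 12 arrays, by group; points are mice, bars the mean and whiskers the SD of 3 mice, and each panel spans the same 1.5 log2 units. The grey band is the range of the Y-linked genes in female arrays (3.79 to 4.66). The 6 KK values of Ahr (8.05 to 8.43) lie below the 6 C57BL/6J values (8.65 to 8.95), Ahrr and Cyp1a1 lie inside the band, and so do the C57BL/6J values of Cyp1b1, whose KK values (4.44 to 4.81) lie higher but only in part above the band.

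Cyp1a1, the P450 gene most used as a gauge of AHR activity, gave 4.45, 4.28 and 4.30 in KK males and 4.11, 4.28 and 4.38 in KK females, against 4.44, 4.47 and 4.40 in C57BL/6J males and 4.34, 4.44 and 4.49 in C57BL/6J females. All 12 values lay within the Y-linked range, as did those of Ahrr. The strains overlapped in both sexes, and the difference of -0.13 (SE 0.06) had an unadjusted p of 0.0444 and an adjusted p of 0.203. The lowest value was that of KK female 1, 4.11, and the other 11 spanned 4.28 to 4.49.

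Cyp1a2 was abundant in every liver. Its log2 values were 12.43, 12.44 and 12.50 in KK males and 12.20, 12.02 and 12.23 in KK females, against 12.24, 12.23 and 12.34 in C57BL/6J males and 12.26, 12.07 and 12.19 in C57BL/6J females. The 3 KK males were the highest of all, above every mouse of the other groups, and both KK females and C57BL/6J males overlapped with C57BL/6J females. Over both sexes KK minus C57BL/6J was 0.08 (SE 0.05, adjusted p = 0.435), with an interval of 0.977-fold to 1.15-fold, so that a change as large as that of Ahr lay outside it in either direction. In males the difference was 0.19 (SE 0.08, interval 0.02 to 0.35, adjusted p = 0.216), and in females -0.02 (SE 0.08, adjusted p = 0.949). Among the alternatives, the male difference passed by limma only after cyclic loess normalization (0.25, adjusted p = 0.0379). It was 0.23 with the interquartile range as a covariate (adjusted p = 0.0505).

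The sexes of KK differed in Cyp1a2 without overlap, by 0.31 for male minus female (SE 0.08, 1.24-fold, interval 1.1-fold to 1.39-fold). This did not pass in the fit of all 12 arrays as deposited (unadjusted p = 0.00152, adjusted p = 0.0613), but it passed in 6 of 9 other settings, with an adjusted p of 0.0215 after quantile normalization, 0.0214 after cyclic loess and 0.0319 with the replicate number as a block. With an array left out it passed in 0 of 12 fits by limma (adjusted p = 0.0575 to 0.152). In C57BL/6J the same difference was 0.09 (SE 0.08, adjusted p = 0.922), and the difference between the strains in this sex effect was 0.21 (SE 0.11, adjusted p = 0.815). Of all probe sets, 10.2% lay, like Cyp1a2, wholly higher in KK males than in KK females. Markers of pericentral hepatocytes, where Cyp1a2 is known to be strongest, went the other way and were lower on average in KK males. Their mean, given above, did not overlap between the sexes of KK, and 7 of 8 differences were negative (median -0.11). Limma called 0 of the 8, and 3 had an unadjusted p under 0.05. In C57BL/6J their mean was also lower in males without overlap, with 7 of 8 negative (median -0.31). There limma called 0, and 5 had an unadjusted p under 0.05. The drop in KK males was not particular to pericentral markers. Of 5 measured markers of periportal hepatocytes, those around the portal vein, all 5 differences were negative in KK (median -0.12). Limma called 0 of these 5, and 2 had an unadjusted p under 0.05. In C57BL/6J, 3 of the periportal differences were positive and 2 negative (median 0.11). Kupffer cell markers were also lower in KK males. All 7 differences were negative (median -1.07), and limma called 6, where 2.17% of all probe sets were called. The mean of these markers did not overlap between the sexes of KK. The count called was 2 without KK male 1 or KK male 2 and 3 without KK female 1. It was 1 when only KK arrays were fitted and 3 with the interquartile range as a covariate. In C57BL/6J all 7 Kupffer differences were negative too (median -0.40). There limma called 0, and 2 had an unadjusted p under 0.05. For the interaction limma called 0 of the 7. The part of any of these marker lists in the Cyp1a2 values was not tested.

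Cyp1b1, a P450 gene known mainly from mesenchymal and steroid-forming cells rather than hepatocytes, differed between the strains at a level near that of absent transcripts. It read 4.81, 4.53 and 4.44 in KK males and 4.78, 4.66 and 4.59 in KK females, against 4.36, 4.35 and 4.31 in C57BL/6J males and 4.14, 4.43 and 4.38 in C57BL/6J females. All 6 KK values lay above all 6 C57BL/6J values, although the nearest pair, 4.44 and 4.43, nearly touched. All C57BL/6J values lay within the Y-linked range of 3.79 to 4.66, and of the KK values 4.81 and 4.78 lay above it, 4.66 at its upper end and the other 3 within it. The limma difference was 0.31 on the log2 scale (SE 0.07, adjusted p = 0.0142), and no fold is given because neither strain's mean, 4.64 in KK and 4.33 in C57BL/6J, lay above that range. Of all probe sets, 5.42% were called higher and 2.66% lay wholly above in KK. Within a sex it did not pass: KK minus C57BL/6J was 0.36 in females (SE 0.10, adjusted p = 0.0553) and 0.25 in males (SE 0.10, adjusted p = 0.221), and the female adjusted p was 0.0306 without KK male 1 and 0.0434 without KK male 3. Stellate cell and fibroblast markers did not rise with it: 0 of 8 were higher and 2 were lower in KK, Lum and Col3a1, with a median difference of -0.10. Their mean was 6.49 to 6.83 in KK males and 6.90 to 7.01 in KK females, against 6.71 to 7.02 in C57BL/6J males and 6.93 to 7.27 in C57BL/6J females. Of 7 sinusoidal endothelium markers, limma called 0 higher and 2 lower, Lyve1 and Oit3, and 2 differences were positive and 5 negative. Their mean was 8.22 to 8.38 in KK males and 8.33 to 8.72 in KK females. It was 8.36 to 8.50 in C57BL/6J males and 8.62 to 8.75 in C57BL/6J females. The endothelial count was 1, without Oit3, when KK female 2 or 3, KK male 1 or 2, C57BL/6J female 3, or C57BL/6J male 1 or 3 was left out. Whether either cell type moved with Cyp1b1 was not tested beyond these values.

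Tiparp, which encodes a mono-ADP-ribosyltransferase that AHR induces and that represses AHR in turn, read 5.35, 5.48 and 5.42 in KK males and 5.62, 5.43 and 5.44 in KK females, against 5.48, 5.35 and 5.52 in C57BL/6J males and 5.79, 5.51 and 5.96 in C57BL/6J females. The C57BL/6J females held the 2 highest values and the widest spread, and the groups overlapped. Over both sexes the difference was -0.15 (SE 0.07, adjusted p = 0.282). In females it was -0.26 (SE 0.10, adjusted p = 0.206), but -0.38 at an adjusted p of 0.0372 without C57BL/6J female 2. Male minus female in C57BL/6J was -0.31 (SE 0.10, unadjusted p = 0.0125, adjusted p = 0.346).

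Aldh3a1, an aldehyde dehydrogenase gene of the same gene battery that is known for its inducibility in liver and its high level in cornea, read 4.96, 5.04 and 5.09 in KK males and 4.96, 5.11 and 5.05 in KK females, against 5.25, 5.13 and 5.07 in C57BL/6J males and 5.02, 5.21 and 5.22 in C57BL/6J females. The values spanned a narrow range with overlap between all groups, and KK minus C57BL/6J was -0.12 (SE 0.05, interval -0.23 to 0.00, adjusted p = 0.242).

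Of the 8 genes, 2 were called between the strains over both sexes, Ahr lower and Cyp1b1 higher, against 11.7% of all probe sets, and the 6 others were not. Their median difference was -0.12 (3 positive, 5 negative), beside a median of 0.01 over all probe sets. Values of 2 of the 8 did not overlap between strains, against 5.98% of all probe sets. Within females 1 of 8 was called (6.5% of all probe sets) and 3 did not overlap (20.6%), and within males 1 of 8 was called (5.15%) and 3 did not overlap (21.7%). The gene called within each sex was Ahr. At an unadjusted p under 0.05 there were 3 of 8 genes in each of these comparisons, against 22.7% of all probe sets for the sexes together, 17.3% for females and 16.9% for males. With 8 genes, no share is read as particular to the axis. The female and male strain differences share no arrays, but their SEs and p-values draw on 1 estimate of the spread over all 12 arrays.

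**Figure D2:**
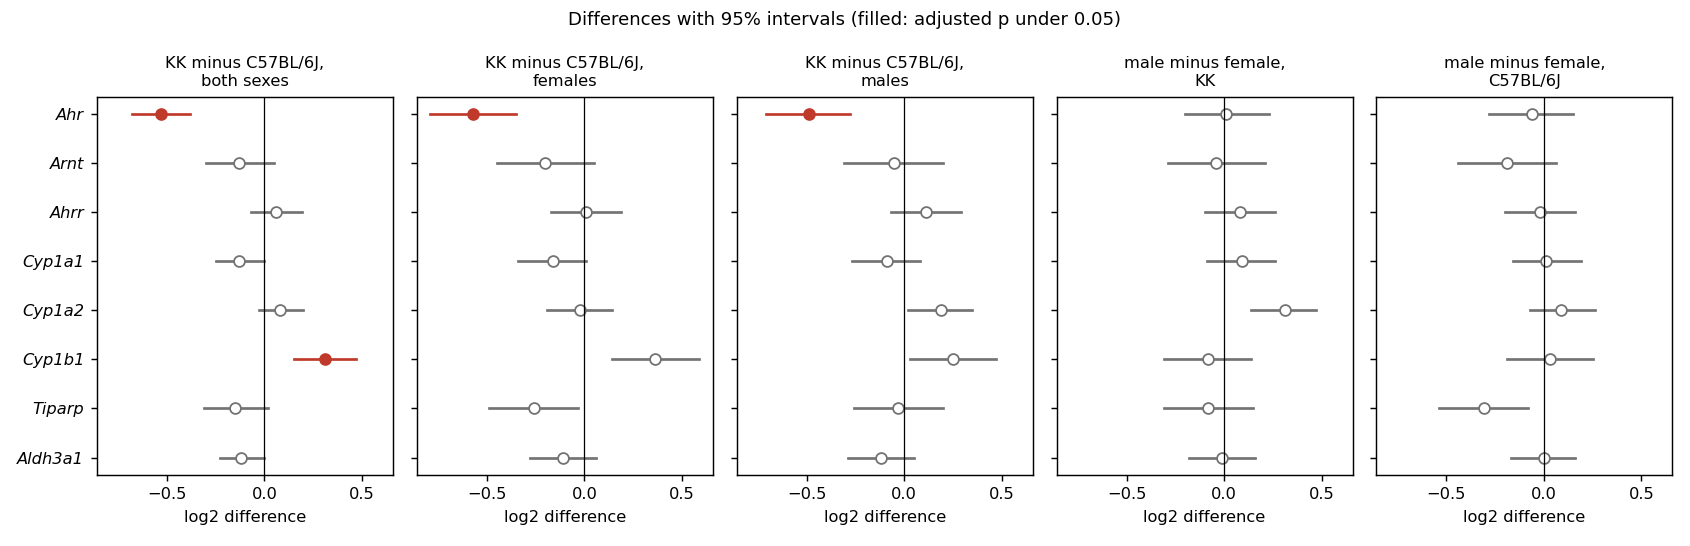
Log2 differences (horizontal axis) with 95% intervals for each of the 8 genes in 5 comparisons; filled points had an adjusted p under 0.05. Ahr lies below 0 in all 3 strain comparisons, at -0.53, -0.57 and -0.49, Cyp1b1 is called over both sexes only, and no gene is called between the sexes, where Cyp1a2 in KK (0.31) lies farthest above 0.

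Between the sexes, limma called 0 of the 8 genes in KK (2.17% of all probe sets called) and 0 in C57BL/6J (1.03%). At an unadjusted p under 0.05 there was 1 gene in KK, Cyp1a2, and 1 in C57BL/6J, Tiparp, where 15.7% and 8.17% of all probe sets had such a p. Ahr differed between the sexes by 0.01 in KK (SE 0.10, interval -0.20 to 0.23) and by -0.06 in C57BL/6J (SE 0.10, interval -0.28 to 0.15). The difference between the male and the female strain effect was called for 0 of the 8 genes (0.141% of all probe sets), and limma gave 0 at an unadjusted p under 0.05 (6.35%). Ordered by group mean, Ahr stood lowest in KK females, then KK males, C57BL/6J males and C57BL/6J females, and only the step between the strains (0.49) was free of overlap.

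The values of Arnt, Tiparp and Ahr were set beside the spread of the arrays. Arnt was lowest in KK male 2 (7.66), the array with the smallest interquartile range, and highest in C57BL/6J female 3 (8.34), 1 of the 2 arrays with the widest. The other such array, KK female 1, read 7.99. Tiparp was also highest in C57BL/6J female 3 (5.96), and KK female 1 read 5.62. At the smallest range, however, KK male 2 read 5.48, and the lowest Tiparp value, 5.35, was in KK male 1 and C57BL/6J male 2. The lowest Ahr value, 8.05, was also that of KK male 2. The association itself was not tested. With the interquartile range as a covariate, a setting chosen after seeing the data, the Arnt difference in females was -0.23 (SE 0.08, adjusted p = 0.087) and that in males was 0.03 (SE 0.08, adjusted p = 0.899). The Tiparp difference in females was -0.28 (SE 0.09, adjusted p = 0.065) with it, and the Ahr difference over both sexes stayed at -0.53 (SE 0.07, adjusted p = 0.000301).

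**Figure D3:**
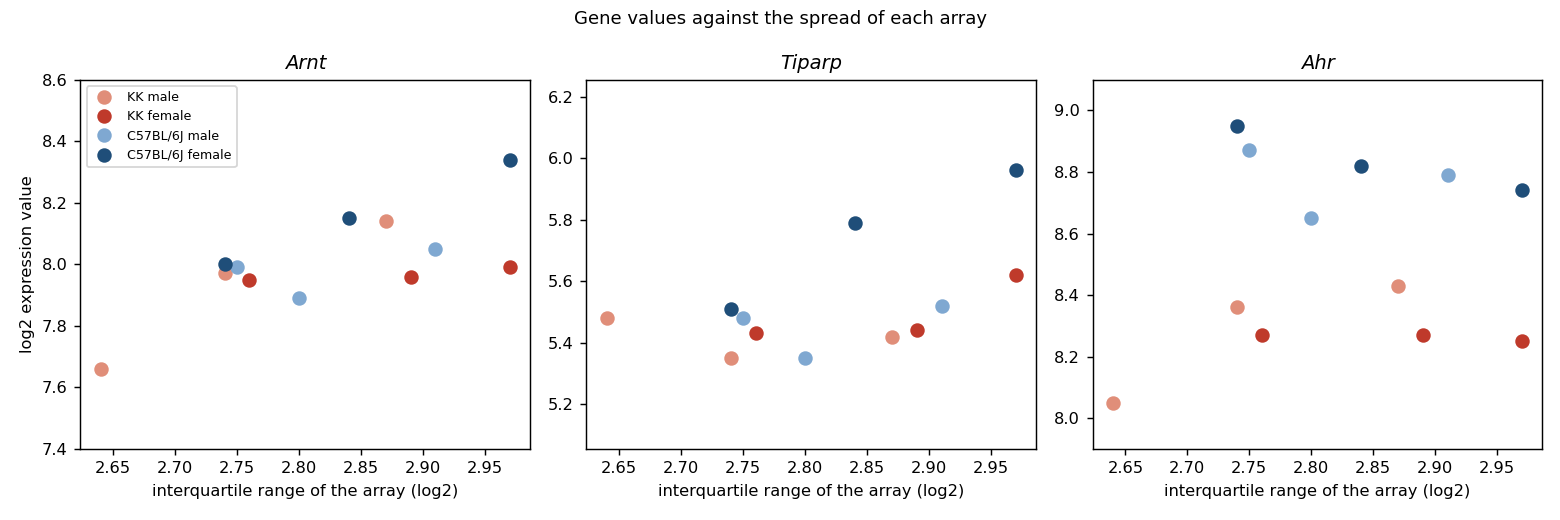
Log2 expression values of Arnt, Tiparp and Ahr (vertical axes) against the interquartile range of each array (horizontal axis), with colours for the 4 groups. Arnt is lowest at the smallest range (7.66 at 2.64), and the 2 arrays at the widest range (2.97) read 8.34 and 7.99, while all KK values of Ahr (8.05 to 8.43) lie below all C57BL/6J values (8.65 to 8.95).

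Other genes of the pathway were taken from general knowledge. Of 9 measured genes (11 listed) of the cytosolic AHR complex and its coactivators, limma called 4 higher and 1 lower in KK over both sexes. The median difference was 0.25. Hsp90aa1, which encodes the inducible form of the chaperone that holds AHR, fell by 0.67 (SE 0.12, adjusted p = 0.00351), with a mean of 8.65 ± 0.36 in KK males and 7.98 ± 0.19 in KK females, compared with 9.01 ± 0.24 in C57BL/6J males and 8.98 ± 0.18 in C57BL/6J females (SD, n = 3 each). The kinase gene Src (0.44, adjusted p = 0.000148) and the coactivator genes Ncoa1 (0.38, adjusted p = 0.00801), Ncoa2 (0.31, adjusted p = 0.00521) and Crebbp (0.30, adjusted p = 0.0291) rose. Crebbp had an adjusted p of 0.0574 to 0.0687 without KK female 1, KK male 1, KK male 3, C57BL/6J female 2, C57BL/6J male 1 or C57BL/6J male 2. Within females, Hsp90aa1 fell to 50.1% of the C57BL/6J level (adjusted p = 0.00467), and Src (0.32, adjusted p = 0.026), Ncoa1 (0.49, adjusted p = 0.0236), Ncoa2 (0.34, adjusted p = 0.0326) and the coactivator gene Ep300 (0.48, adjusted p = 0.046) rose, but without any 1 of the 6 female arrays only 1 of the list rose, and 2 rose when only female arrays were fitted. Within males, Src rose by 0.57 (adjusted p = 0.00074) and no other gene of the list was called. Src was also higher in KK males than in KK females, by 0.37 (adjusted p = 0.0256), with an adjusted p of 0.0551 to 0.129 without KK female 1 or any 1 of the 3 KK males. Of 12 other bHLH-PAS genes, which include the hypoxia factors and the clock genes, limma called 0 and 1 had an unadjusted p under 0.05, Hif1a at -0.21 (adjusted p = 0.103).

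Of 10 other measured AHR target genes (16 listed), limma called 1 lower and 0 higher in KK, with a median of 0.00. That gene was Fmo2, a flavin monooxygenase gene, at -1.02 (SE 0.15, adjusted p = 0.000893), with a mean of 6.69 ± 0.37 in KK males and 7.49 ± 0.49 in KK females, compared with 7.27 ± 0.10 in C57BL/6J males and 8.94 ± 0.13 in C57BL/6J females (SD, n = 3 each). Within females the Fmo2 difference was -1.46 (SE 0.22, adjusted p = 0.00155). Nqo1, the quinone reductase gene shared by AHR and NRF2, differed by -0.01 between the strains (SE 0.12, adjusted p = 0.979), and its master regulator gene Nfe2l2 by -0.17 (adjusted p = 0.187). In the sexes the list moved in both directions. Male minus female, Nqo1 fell by 0.81 in KK (adjusted p = 0.0277) and by 0.98 in C57BL/6J (adjusted p = 0.0116), and Selenbp1, a selenium-binding protein gene, rose by 0.85 in KK (adjusted p = 0.00432) and 0.87 in C57BL/6J (adjusted p = 0.00372). Ugdh, which makes the sugar donor for glucuronidation, rose by 0.56 in KK males (adjusted p = 0.0177), and its male minus female difference in C57BL/6J was 0.48 (adjusted p = 0.0516). The male minus female difference of Fmo2 was -0.80 in KK (adjusted p = 0.0967) and -1.67 in C57BL/6J (adjusted p = 0.00171). The interaction, KK minus C57BL/6J in this sex difference, did not pass, at 0.07 for Ugdh (adjusted p = 0.953) and 0.87 for Fmo2 (adjusted p = 0.673). The calls of Nqo1 in KK and of Ugdh were lost without KK female 1 (adjusted p = 0.135 and 0.094) or KK female 2 (0.0511 and 0.0521), and that of Nqo1 in KK also without KK male 1 (0.0762) or KK male 2 (0.118). In C57BL/6J the call of Nqo1 was lost without C57BL/6J female 2 (0.0607), male 2 (0.0601) or male 3 (0.0504). When only the arrays of the strain were fitted, the adjusted p was 0.1 for Ugdh and 0.0789 for Src in KK, and 0.0669 for Nqo1 in C57BL/6J.

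Of 8 genes of tryptophan breakdown, a route that yields AHR ligands, limma called 2 higher and 1 lower in KK. Ido2, an indoleamine dioxygenase gene, differed by 0.49 (SE 0.07, adjusted p = 0.000319), and Kmo, a kynurenine hydroxylase gene, by 0.16 (adjusted p = 0.0445). Afmid, a formylkynurenine hydrolase gene, differed by -0.35 (SE 0.06, adjusted p = 0.00242). Among the 12 fits that left out an array, Kmo was called only without KK female 2 or C57BL/6J male 3, and had an adjusted p of 0.0562 to 0.105 in the others. Ido2 rose in females (0.52, adjusted p = 0.00462) and in males (0.46, adjusted p = 0.0113, but 0.0587 without KK male 1). Afmid fell by 0.40 in females (adjusted p = 0.0163), with an adjusted p of 0.0556 to 0.0637 without KK female 3, C57BL/6J female 1 or C57BL/6J female 2. Tdo2, which opens this route in liver, differed by -0.10 (adjusted p = 0.56). Of 5 measured genes of P450 electron supply and heme metabolism (6 listed, Por not found), limma called 2 higher and 0 lower in KK. Alas1, the rate-limiting enzyme gene of heme synthesis, rose by 1.13 (SE 0.11, 2.18-fold, adjusted p = 2.93e-05), with a mean of 12.12 ± 0.30 in KK males and 11.61 ± 0.14 in KK females, compared with 10.48 ± 0.22 in C57BL/6J males and 11.00 ± 0.19 in C57BL/6J females (SD, n = 3 each), and Cyb5r3, a cytochrome b5 reductase gene, rose by 0.32 (adjusted p = 0.00226). Alas1 rose by 1.64 in males (adjusted p = 5.69e-05) and by 0.61 in females (adjusted p = 0.0362), where any 1 female array left out gave an adjusted p of 0.0574 to 0.142, KK male 1 left out 0.0519 and C57BL/6J male 2 left out 0.0515. The male minus the female difference was 1.03 (SE 0.22, adjusted p = 0.162). Cyb5r3 rose by 0.37 in males (adjusted p = 0.0171), with an adjusted p of 0.064 to 0.0829 without KK male 1, C57BL/6J male 1 or C57BL/6J male 2. These counts stand beside the 11.7% of all probe sets called, and nothing is read as particular to a list.

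**Figure D4:**
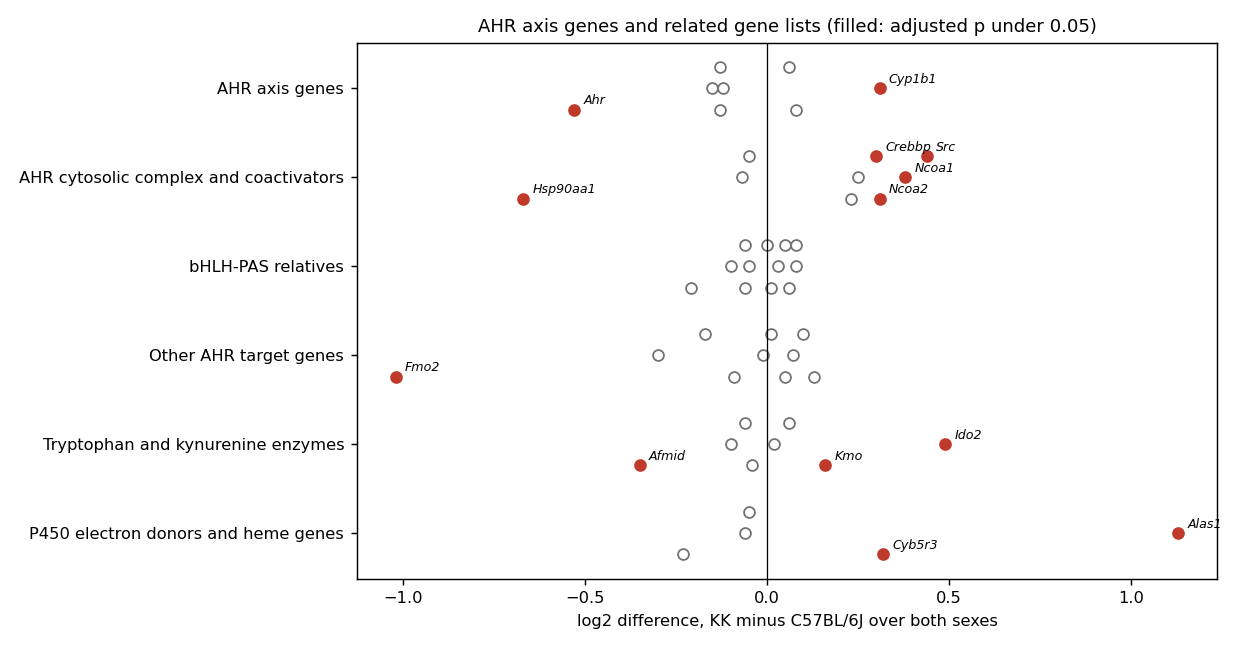
Log2 difference of KK minus C57BL/6J over both sexes (horizontal axis) for each measured gene of the AHR axis and of 5 related lists (rows; vertical offsets within a row only separate points); filled points had an adjusted p under 0.05 and carry their symbol. Alas1 (1.13) and Fmo2 (-1.02) lie farthest out, and the bHLH-PAS genes cluster around 0.

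The pattern of each called gene across arrays was set beside those of 18076 other named genes, each centred on its own mean. For Ahr, whose values deviated from their mean by 0.265 on average, the closest were Decr2, which encodes a reductase of peroxisomal fatty acid oxidation, Zfp708 and Def8, with mean absolute differences of 0.077, 0.078 and 0.085 over 12 arrays. For Cyp1b1, with a mean deviation of 0.161, they were Hhipl1, Rapgef1, a Ras-family exchange factor gene, and Gtf3a, which encodes a transcription factor of ribosomal RNA genes, at 0.059, 0.069 and 0.069. KK minus C57BL/6J was -0.49 for Decr2, -0.55 for Zfp708 and -0.63 for Def8, beside -0.53 for Ahr, and 0.23 for Hhipl1, 0.31 for Rapgef1 and 0.34 for Gtf3a, beside 0.31 for Cyp1b1. These genes were picked for their closeness over the same 12 arrays, so a similar strain difference follows from the choice. The likeness was not tested.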

How the data were processed

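Liver RNA of 12 mice was measured with 1 Affymetrix whole-transcript array each. The deposited values are log2 expression values that the authors made with RMA and the affy package, per the submitters' processing notes, which give no version; the log2 scale is taken from the range of the values. Probe sets are numbered by Entrez gene, so each of the 8 genes has 1 probe set. Symbols came from the platform's probe table (18786 of 21212 probe sets with exactly 1 symbol, 6 with several, 2420 with none), and positions and promoters from RefSeq (GRCm38.p6). One model with a mean for each strain and sex took in the 12 arrays (limma 3.58.1 in R 4.3.3, empirical Bayes with 11.99 total degrees of freedom, no filter on low values). Contrasts were two-sided, and p-values were adjusted by the Benjamini-Hochberg method over the 21212 probe sets of each of 6 comparisons. A gene was called when this limma adjusted p was under 0.05, and each SE is from the model. The number of arrays limits precision. Scanner files were not used here, so background and detection could not be assessed again. The genes, lists and tests were chosen with earlier results of these data known. Named genes are the 8, up to 4 genes per related list with the smallest adjusted p plus all calls where 5 or fewer were made, and the 3 closest patterns of each called gene. The fit was also run on simulated data with independent noise in each array, and no result here rests on that run. The labels do not say how the mice of a group are related, and the p-values treat them as independent. Each p-value sets a difference against the spread within groups, estimated over the 12 arrays. Alternatives were other normalizations, filters, array weights, a replicate block, fits on fewer groups, each array left out and, chosen after seeing the data, the interquartile range as a covariate.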

Additional observations from a re-analysis of the deposited data

How the results depend on the processing

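Each of the 48 differences (8 genes in 6 comparisons) was recomputed under up to 21 alternatives. Of the 962 values, 907 kept their direction and their side of the threshold, 17 passed only in the alternative, 2 no longer passed and 36 changed sign, none of which was called. Ahr was called in both sexes together and in females under every alternative run, at -0.57 to -0.47 over both sexes with an array left out. Cyp1b1 over both sexes was called in all 19 alternatives that tested it (0.25 to 0.40), and was not tested when only probe sets above the median were kept, which left 1 of the 8 called.
In females 2 of the 8 were called after quantile or cyclic loess normalization, with 1 probe set per gene, with an intensity trend and robust prior, with array weights and with the interquartile range as a covariate, and 1 to 2 with an array left out (2 without KK male 1, KK male 3 or C57BL/6J female 2). In males the count was 2 with cyclic loess, where Cyp1a2 joined Ahr, or with array weights, where Cyp1b1 did. It was 0 when only the male arrays were fitted, and 0 to 1 with an array left out (0 without C57BL/6J male 1). Between the sexes of KK it was 1, Cyp1a2, after quantile or cyclic loess normalization, with the trend, array weights or the covariate, and with the replicate block (0.31, adjusted p = 0.0319), which changed no other call of the 8. The replicate numbers were not treated as pairing in the main fit, since the labels do not say that they pair mice. Of 12 same-numbered pairs, 6 had deviations correlated above 0.1 (-0.19 to 0.44). Among the arrays of the other groups, 8 of 12 arrays correlated best with an array of their own number. In each other group, 1 of the 3 arrays shares that number. With the block, more probe sets were called in every comparison. Over both sexes 1433 were higher and 1680 lower in KK, against 1149 and 1339 in the main fit.
Counts over all probe sets also moved. The female strain count, 1378, was 2329 with the covariate and 905 (without KK female 1) to 1412 with an array left out. The male strain count, 1092, was 2423 with array weights, 1673 with the covariate and 662 (without KK male 1) to 1163, with 711 without C57BL/6J male 3. The KK sex count, 460, was 2058 with array weights, 190 with only KK arrays and 160 (without KK female 1) to 512, with 201 and 193 without KK male 1 and KK male 2. The C57BL/6J sex count, 219, was 363 with array weights, 392 with the covariate and 142 (without C57BL/6J male 3) to 225. The interaction count, 30, was 77 with array weights and 19 (without KK male 2 or C57BL/6J male 3) to 35. The cause of these changes was not tested.
Sign changes were small. With the covariate, male minus female in KK was -0.01 for Ahrr, 0.10 for Arnt and 0.02 for Tiparp, and the male strain difference 0.03 for Arnt and 0.02 for Tiparp. Quantile normalization gave 0.02 for Arnt between the sexes of KK and 0.01 for Cyp1a2 in females, where cyclic loess gave 0.02. Array weights gave 0.07 for Cyp1b1 between the sexes of KK and 0.07 for Aldh3a1 between those of C57BL/6J. With an array left out, the ranges that crossed 0 were, between the sexes of KK, -0.06 to 0.13 for Ahr, -0.15 to 0.09 for Arnt and -0.05 to 0.03 for Aldh3a1. Between the sexes of C57BL/6J they were -0.06 to 0.03 for Ahrr, -0.03 to 0.04 for Cyp1a1, -0.06 to 0.08 for Cyp1b1 and -0.07 to 0.03 for Aldh3a1. Between the strains they were -0.05 to 0.07 for Ahrr and -0.08 to 0.04 for Cyp1a2 in females, and -0.16 to 0.08 for Arnt and -0.08 to 0.00 for Tiparp in males. For the interaction they were 0.00 to 0.19 for Ahr, 0.00 to 0.14 for Cyp1a1 and -0.05 to 0.06 for Aldh3a1. Ahrr, Cyp1a1 and Cyp1b1 read near the level of absent transcripts, which limits what their differences can show.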
